A study of Mus musculus with 2 samples.

Results

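Endothelial nuclei were taken from single-nucleus RNA sequencing of mouse tibialis anterior muscle (a droplet method that reads RNA of isolated nuclei). They numbered 260 of the 23616 barcodes that held 2000 or more UMIs (unique molecular identifiers, each standing for 1 captured RNA molecule) and at most 5% mitochondrial UMIs. A member had at least 4 UMIs of Ptprb, Flt1, Cyyr1, Pecam1 and Erg together. It had at most 1 UMI of Ptprc, Pdgfra and Pax7 together, which mark leukocytes, fibroblasts and satellite cells. Less than 1% of its UMIs came from the fibre genes Ttn, Neb, Trdn and Dmd. These measured values chose the members, so the levels of the marker genes are a description and support nothing.

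All mice were males aged 16 to 20 weeks with chronic kidney disease, sampled 5 days after the femoral artery had been ligated. One library was labelled AHRfl/fl (a floxed gene for the aryl hydrocarbon receptor, AHR) and 1 was labelled AHRmKO (its muscle knockout). The strain field of both is the cross of AHRtm3.1Bra/J with Tg(ACTA1-cre/Esr1*)2Kesr/J, in which a skeletal actin promoter drives an inducible Cre recombinase. That promoter acts in muscle fibres, so the endothelial cells of both groups are not the cells in which the design deletes Ahr. How many animals went into a library is not stated, and with 1 library a group no difference below has a replicate check or a p-value.

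Endothelial cells line blood vessels and, in muscle, mostly form capillaries that run along the fibres between arterioles and venules. They take up growth signals through VEGF receptors and the Tie2 receptor, and Notch ligands on one cell act on its neighbours when vessels sprout. Arterial, capillary and venous endothelium carry different genes, among them connexins at the arterial end and chemokine-binding and leukocyte-adhesion proteins at the venous end.

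The library labelled AHRfl/fl gave 179 members of 16986 barcodes, or 1.05% (0.906 to 1.22, exact Clopper-Pearson interval), and the one labelled AHRmKO gave 81 of 6630, or 1.22% (0.971 to 1.52). The intervals overlapped. The whole libraries held 151788328 and 113737134 UMIs. Members held a median of 3273 and 3957 UMIs, summing to 643863 and 453756. The deepest nuclei held 8887 and 19076 UMIs. Median mitochondrial shares were 1.22% and 2.68%. No member barcode occurred in both libraries, while 30 of all barcodes passing the UMI and mitochondrial limits did. Throughout, 2 values given together name the library labelled AHRfl/fl first, CPM are counts per 1e+06 UMIs of the summed members, and intervals are 95% and cover counting error only.

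Few barcodes lay near the threshold of the rule. Among barcodes that met the other limits, 8 and 1 had 3 marker UMIs, just outside, and 4 and 1 had 4, just inside. Members with 8 or more marker UMIs numbered 165 and 75. The rule on Ptprc, Pdgfra and Pax7 left out 149 and 37 barcodes with 4 or more endothelial marker UMIs, whose median UMI counts of 6942 and 9000 were above those of the members. Scrublet, which scores barcodes for resembling 2 nuclei in 1 droplet, placed 4 of the 179 and 4 of the 81 members in the top 5% of their library's scores.

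**Figure D1:**
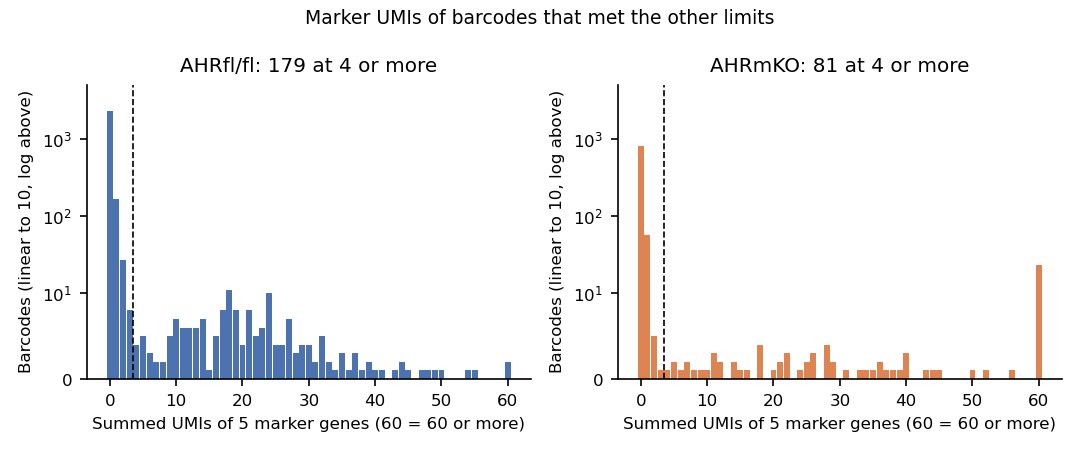
Number of barcodes (vertical axis, linear to 10 and logarithmic above) by the summed UMIs of Ptprb, Flt1, Cyyr1, Pecam1 and Erg (horizontal axis, values of 60 or more drawn at 60), for barcodes that met every other limit, with 1 panel a library. The dashed line marks the limit of 4 UMIs, beyond which lie 179 (left) and 81 (right) barcodes.

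Other nuclei were taken for comparison, with at most 1 endothelial marker UMI and less than 1% fibre UMIs. Leukocyte nuclei (6405 and 1898) had 4 or more UMIs of Ptprc, Adgre1, Csf1r, Mrc1 and F13a1 together, and Pdgfra nuclei (741 and 283), a class that holds fibroblasts, had 2 or more UMIs of Pdgfra. The label was checked against 27 endothelial identity genes that the rule did not use. In the library labelled AHRfl/fl, 26 of the 27 were at least 10-fold above their level in leukocyte nuclei, 24 above that in Pdgfra nuclei and 26 above that in free RNA, which was read from barcodes of 200 to under 500 UMIs. In the library labelled AHRmKO these counts were 26, 24 and 27. Cdh5, the cadherin of endothelial junctions, was at 329 UMIs (511 CPM) and 197 UMIs (434 CPM) in members against 7.09 and 3.34 CPM in all other barcodes. Fli1, an ETS transcription factor that leukocytes also use, was the gene closest to its leukocyte level. After every nucleus was thinned to 2000 UMIs, a UMI of Cdh5 was seen in 57.5% (49.9 to 64.9) and 50.6% (39.3 to 61.9) of members, against 0.609% and 0.580% of leukocyte nuclei. Unthinned shares of members were 73.2% and 75.3%. The leukocyte nuclei, which should lack the gene, had median depths of 3013 and 3528 UMIs against 3273 and 3957 in members.

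**Figure D2:**
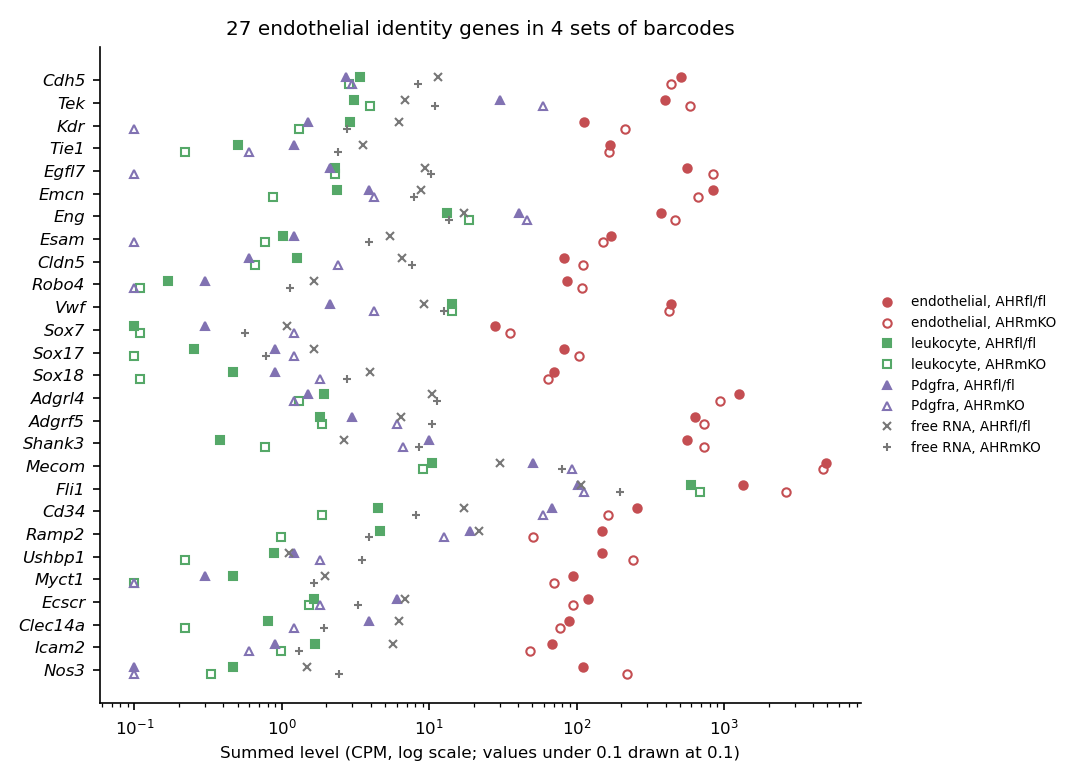
Summed level of 27 endothelial identity genes (CPM, log axis, values under 0.1 drawn at 0.1) in endothelial nuclei, leukocyte nuclei, Pdgfra nuclei and barcodes of 200 to under 500 UMIs (free RNA), filled symbols and crosses for the library labelled AHRfl/fl and open symbols and plus signs for the one labelled AHRmKO. For each gene the endothelial points stand to the right of the others, and Cdh5 was at 511 and 434 CPM in endothelial nuclei.

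The 20 genes with the highest ratio of member level to that in all other barcodes ranged from 77.7-fold to 255-fold over the libraries. They include Adgrl4, Egfl7, Emcn, Tie1, Robo4, Mecom and Plvap beside 5 genes of the rule. Because members were chosen by their endothelial counts, these ratios describe the set.

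Markers of other cell types were also present in members. In the library labelled AHRfl/fl, Ttn had 1028 UMIs in 176 of 179 nuclei and Acta1 450 in 164, against 329 in 131 for Cdh5. In the one labelled AHRmKO these were 241 UMIs in 73 of 81 nuclei, 17 in 17 and 197 in 61. In the library labelled AHRmKO, 7 of 7 fibroblast and 4 of 4 erythroid markers counted were 2-fold or more lower. So were 4 of 4 immature fibre, 2 of 2 smooth muscle, 6 of 10 leukocyte and 9 of 13 fibre markers. Over all genes counted 15.5% were 2-fold or more lower. The 9 fibroblast markers summed to 1270.5 and 172 CPM, the 11 leukocyte markers to 1140.0 and 507 CPM and the 14 fibre markers to 3777 and 1214 CPM. In free RNA the same lists summed to 4488 and 1234 CPM, 5602 and 1689.5 CPM and 19067 and 11098 CPM. The rule limited Ttn, Neb, Trdn and Dmd of the fibre list, Ptprc of the leukocyte list and Pdgfra of the fibroblast list. Free RNA had no such limits, so the sums in members are partly set by the rule. Ttn alone held 1028 and 241 of the 2432 and 551 UMIs of the fibre list. Pi16 of the fibroblast list and Mybpc2 of the fibre list were at 0 in both libraries. Glial and adipocyte markers were near 0, and the pericyte list summed to 91.6 and 63.9 CPM. The estimated share of free RNA in members was 18.8% and 11.2%. It is the summed CPM of fibre markers other than Ttn, Neb, Trdn and Dmd in members over that in free RNA. The estimate depends on the list, and the leukocyte sums above give a higher proportion in the library labelled AHRmKO. The part of free RNA and of other cell types in the differences below was not tested, beyond the alternative that subtracts free RNA.

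Over genes with at least 20 UMIs, 443 of 7883 (5.62%) were 2-fold or more higher in the library labelled AHRmKO and 1220 (15.5%) were 2-fold or more lower, with 0.5 CPM added on both sides. With free RNA subtracted from each library the split was 722 higher and 942 lower, and without clusters 3 and 5, described below, it was 441 and 863. Leaving out the 497 genes with a more abundant annotated partner on the opposite strand gave 434 of 7386 higher (5.88%) and 1036 lower (14.0%). These counts moved with gene length, which was examined after the values had been seen. Of 960 genes of at most 10 kb, 46.7% were 2-fold or more lower and the median log2 ratio was -0.84. Genes of 10 to 50 kb had a median of 0.04, those of 50 to 200 kb 0.13 and longer ones 0.03. Short genes were also lower in leukocyte nuclei (-0.70), Pdgfra nuclei (-0.64) and free RNA (-1.85). In free RNA the median of genes over 200 kb was 1.04, in leukocyte nuclei -0.09. The part of gene length in single results was not tested.

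**Figure D3:**
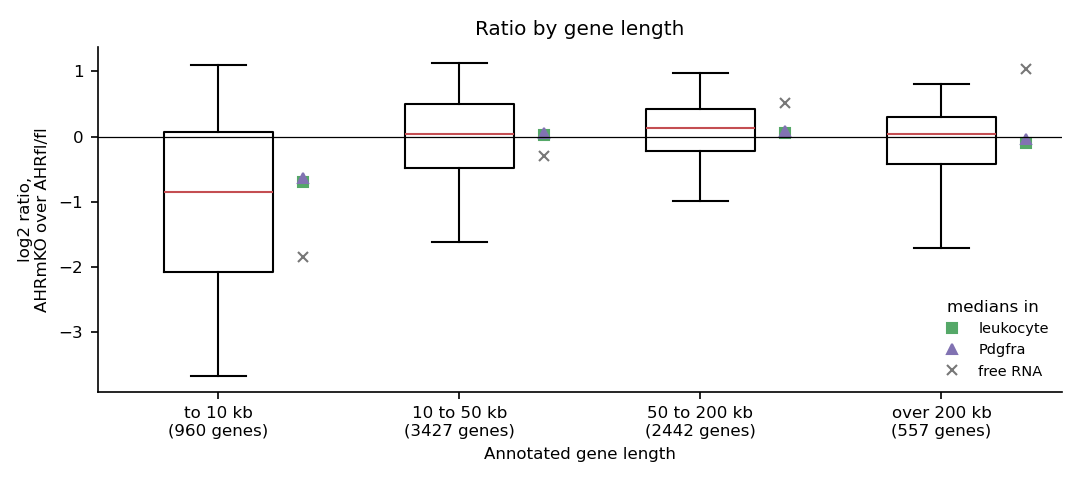
log2 ratio of CPM, library labelled AHRmKO over that labelled AHRfl/fl (vertical axis), by annotated gene length (horizontal axis), for genes without a more abundant opposite-strand partner in endothelial nuclei. Boxes span the quartiles with the median as a line, whiskers run from the 5th to the 95th percentile, and symbols give the medians in leukocyte nuclei, Pdgfra nuclei and free RNA. The 960 shortest genes have a median of -0.84, below 0 as in the other 3 sets.

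Ahr, the gene targeted in fibres, was at 55 UMIs (85.4 CPM) and 55 UMIs (121 CPM) in endothelial nuclei, with Poisson intervals of 64.4 to 111 and 91.3 to 158 CPM. Its log2 ratio was 0.50 (-0.06 to 1.07), an interval that includes 0. In barcodes with 5% or more fibre UMIs Ahr had 31 UMIs (21.1 CPM, Poisson interval 14.3 to 29.9) and 191 UMIs (27.7 CPM, 23.9 to 31.9), so Ahr counts were not lower in the library labelled AHRmKO there either. The floxed stretch is an early exon, and 3′ counts from outside it do not check the deletion. Arnt, the partner of AHR, was at 94 UMIs (146 CPM) and 77 UMIs (169.7 CPM), a log2 ratio of 0.22 (-0.24 to 0.67). The targets Cyp1a1, Cyp1a2 and Aldh3a1 had no UMI in members of either library, where 3 counts, the limit that a count of 0 allows, equal 4.66 and 6.61 CPM. Tiparp was at 32 UMIs (49.7 CPM) and 17 UMIs (37.5 CPM) and Nqo1 at 11 UMIs (17.1 CPM) and 3 UMIs (6.61 CPM), with log2 ratios of -0.40 (-1.35 to 0.48) and -1.31 (-3.85 to 0.55). Ahrr had 1 and 2 UMIs and Cyp1b1 2 and 0. Of the 9 listed genes of the pathway, 3 had 20 or more UMIs and none of these was past 2-fold.

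Of the 6 genes of the VEGF receptor list, Kdr, Flt1, Flt4 and Plxnd1 had ratios whose intervals lie above 0, none of them past 2-fold. Kdr, the main signalling receptor for VEGF-A, was at 72 UMIs (112 CPM) and 97 UMIs (214 CPM), a log2 ratio of 0.93 (0.48 to 1.40). Flt1, a receptor that also traps VEGF and one of the genes of the rule, had 0.45 (0.30 to 0.59). Flt4, the receptor for VEGF-C, was at 30 UMIs (46.6 CPM) and 37 UMIs (81.5 CPM) (log2 ratio 0.80, 0.07 to 1.55). The co-receptors Nrp1 and Nrp2 lay at -0.08 (-0.33 to 0.16) and -0.02 (-0.25 to 0.21), and Plxnd1, a semaphorin receptor, at 0.86 (0.52 to 1.21). None of the 6 was past 2-fold. The median ratio of the list was 0.62 with Flt1, which helped to choose the members. Over the other 5, which include Plxnd1, it was 0.80, against 0.00 over all genes counted. In leukocyte nuclei the ratio of Kdr was below 0 (-0.91, from 69 and 12 UMIs), and Pdgfra nuclei held 5 UMIs and none. Tek, the angiopoietin receptor Tie2, was at 256 UMIs (398 CPM) and 268 UMIs (591 CPM) (log2 ratio 0.57, 0.32 to 0.82), and its ligand Angpt2 at 76 UMIs (118 CPM) and 34 UMIs (74.9 CPM) (log2 ratio -0.65, -1.28 to -0.05). One nucleus held 14 of the 34 Angpt2 UMIs in the library labelled AHRmKO, and the ratios of Angpt2 were -2.99 in leukocyte and -2.86 in Pdgfra nuclei. Tie1 was at 109 and 75 UMIs (log2 ratio -0.03).

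Nos3 and Edn1, which make a vessel dilator and a vessel constrictor, were both higher in endothelial nuclei of the library labelled AHRmKO. Nos3, endothelial nitric oxide synthase, was at 71 UMIs (110.3 CPM) and 100 UMIs (220.4 CPM), a log2 ratio of 0.996 (0.55 to 1.46), and its UMIs came from 50 of 179 and 41 of 81 nuclei. Edn1, which encodes endothelin-1, was at 28 UMIs (43.5 CPM) and 90 UMIs (198 CPM), a log2 ratio of 2.18 (1.56 to 2.86). Its UMIs came from 22 of 179 and 21 of 81 nuclei, and 1 nucleus held 21 of the 90 UMIs in the library labelled AHRmKO. After thinning, Edn1 was seen in 5.59% (2.71 to 10.0) and 17.3% (9.78 to 27.3) of members, against 0.250% and 0.0527% of leukocyte nuclei, and unthinned in 12.3% and 25.9%. Over the 14 alternatives run for single genes the ratio of Edn1 stayed between 1.76 and 2.48 and that of Nos3 between 0.61 and 1.12. In leukocyte nuclei, where Edn1 was at 1.01 and 0.328 CPM, and in Pdgfra nuclei its ratios were -0.87 and -1.71.

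The promoters of Edn1 and of 2 venous genes with low ratios, Ackr1 and Lrg1, are shown because these genes stood at opposite ends of the endothelial differences. Each is the 250 bases before the gene's start as RefSeq lists it, 5′ to 3′, from RefSeq on GRCm38.p6, with matches to the searched motifs in capitals. Edn1 lies at chr13:42301226-42301475 (plus strand), Ackr1 at chr1:173333504-173333753 (minus strand) and Lrg1 at chr17:56121947-56122196 (minus strand). The gene annotation used for lengths here starts Ackr1 and Lrg1 further upstream, so that 247 of the 250 bases shown for Ackr1 and 55 of those for Lrg1 lie inside the annotated gene.
Edn1: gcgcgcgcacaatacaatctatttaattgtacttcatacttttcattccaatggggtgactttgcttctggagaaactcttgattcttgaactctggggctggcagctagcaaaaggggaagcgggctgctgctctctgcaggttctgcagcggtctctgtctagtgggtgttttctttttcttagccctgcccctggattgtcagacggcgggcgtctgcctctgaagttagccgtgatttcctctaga
Ackr1: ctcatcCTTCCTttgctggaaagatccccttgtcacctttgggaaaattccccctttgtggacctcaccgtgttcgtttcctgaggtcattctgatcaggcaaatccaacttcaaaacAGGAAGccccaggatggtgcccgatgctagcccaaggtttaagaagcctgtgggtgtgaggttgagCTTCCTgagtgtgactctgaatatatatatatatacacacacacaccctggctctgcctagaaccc
Lrg1: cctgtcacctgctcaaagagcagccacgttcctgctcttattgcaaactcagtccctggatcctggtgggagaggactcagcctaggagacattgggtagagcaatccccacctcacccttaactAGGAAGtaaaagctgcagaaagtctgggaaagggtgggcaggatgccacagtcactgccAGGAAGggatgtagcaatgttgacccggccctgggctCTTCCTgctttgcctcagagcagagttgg
The motifs, searched on both strands, were the AHR core GCGTG, the AP-1 site TGACTCA, the ETS motif AGGAAG and the GATA motif AGATAA. Of 32536 promoters of this length, 28.3% held the AHR core, 4.5% the AP-1 site, 29.6% the ETS motif and 10.0% the GATA motif. Ackr1 and Lrg1 each held the ETS motif at 3 places. Edn1 had no match to the 4 in this window, and no window held the other 3. A match is a run of letters and not a binding site.

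Ackr1, which binds chemokines on venules, was at 33 UMIs (51.3 CPM) and 1 UMI (2.20 CPM), a log2 ratio of -4.26 (-9.89 to -1.96) on the single UMI. It was seen in 23 of 179 and 1 of 81 nuclei. Lrg1, a secreted glycoprotein, was at 91 UMIs (141 CPM) and 18 UMIs (39.7 CPM) (log2 ratio -1.82, -2.65 to -1.09), and Vcam1, a leukocyte adhesion molecule, at 39 UMIs (60.6 CPM) and 10 UMIs (22.0 CPM) (log2 ratio -1.44, -2.63 to -0.43). Ackr1 and Lrg1 are annotated at 1.86 and 2.32 kb, in the length class of which 46.7% were 2-fold lower, and the ratios of Lrg1 were -1.04 in leukocyte and -1.79 in Pdgfra nuclei. Vcam1 stood at 113 and 28.2 CPM in free RNA, above its level in members of each library, and its ratio in leukocyte nuclei was -2.09. Nr2f2, the transcription factor that sets venous identity, had the opposite direction at 83 UMIs (129 CPM) and 115 UMIs (253 CPM) (log2 ratio 0.97, 0.56 to 1.40). Selp, the adhesion molecule P-selectin, was at 53 UMIs (82.3 CPM) and 61 UMIs (134 CPM) (log2 ratio 0.70, 0.15 to 1.27), with 17 of the 61 UMIs in 1 nucleus, and it was seen in 32 of 179 and 15 of 81 nuclei. Of 11 venous markers counted, none was 2-fold higher and 3 were 2-fold lower, with a median of -0.21. Over all genes 5.62% were 2-fold higher and 15.5% lower.

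Of 9 arterial markers counted, 1 was 2-fold higher and none lower, against 5.62% and 15.5% of all genes, with a median of 0.41. A ratio above 0 was found for 6 of the 9. The 2 lowest were Sema3g at 59 and 30 UMIs (log2 ratio -0.47) and Fbln5 at 71 and 41 UMIs (log2 ratio -0.29). Gja5, connexin 40, was at 34 UMIs (52.8 CPM) and 57 UMIs (126 CPM) (log2 ratio 1.24, 0.61 to 1.91), in 12 of 179 and 16 of 81 nuclei. Dll4, a Notch ligand, was at 38 UMIs (59.0 CPM) and 52 UMIs (115 CPM) (log2 ratio 0.95, 0.33 to 1.60) and Jag1, another, at 51 UMIs (79.2 CPM) and 79 UMIs (174 CPM) (log2 ratio 1.13, 0.61 to 1.67). Jag1 was higher by as much in leukocyte nuclei (1.23) and Pdgfra nuclei (1.14). The ligand Dll1 went the other way at 14 and 6 UMIs (log2 ratio -0.70). The Notch target Hey2 had 11 UMIs in the library labelled AHRmKO and none in members of the other, at least 5.2-fold higher against a limit of 3 counts over those members, with no counting error on the 11 UMIs. The counting interval of its log2 ratio begins at 1.83. Hey2 had fewer than the 20 UMIs needed to be counted. Other Notch targets did not share its direction, with Hes1 at 32 and 15 UMIs, Hey1 at 8 and 4 and Heyl at 5 and 0. Nrarp, at 6 and 11 UMIs, did. Rbpj, the DNA-binding partner of Notch, was at 102 UMIs (158 CPM) and 47 UMIs (104 CPM) (log2 ratio -0.61, -1.14 to -0.10). Over 11 counted genes of the Notch list the median was 0.12 and 1, Jag1, was past 2-fold, at 0.88 without clusters 3 and 5.

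The medians of the capillary and fatty acid lists were below 0, while few of their genes were past 2-fold. Fabp4, a fatty acid carrier, was at 738 UMIs (1146 CPM) and 325 UMIs (716 CPM) (log2 ratio -0.68, -0.87 to -0.49), and its relative Fabp5 at 131 UMIs (203 CPM) and 28 UMIs (61.7 CPM) (log2 ratio -1.71, -2.37 to -1.12). Lpl, which releases fatty acids from lipoproteins, was at 55 UMIs (85.4 CPM) and 8 UMIs (17.6 CPM) (log2 ratio -2.24, -3.56 to -1.20), and Aqp1, a water channel, at 177 UMIs (275 CPM) and 41 UMIs (90.4 CPM) (log2 ratio -1.60, -2.13 to -1.11). Cd36, a fatty acid receptor, was at 483 UMIs (750.2 CPM) and 275 UMIs (606 CPM) (log2 ratio -0.31, -0.53 to -0.09). Btnl9, a butyrophilin-like surface protein, went the other way at 36 UMIs (55.9 CPM) and 66 UMIs (145 CPM) (log2 ratio 1.37, 0.77 to 2.01). Rgcc was at 31 UMIs (48.1 CPM) and 39 UMIs (85.9 CPM) (log2 ratio 0.83, 0.12 to 1.57), but 1 nucleus held 17 of the 39 UMIs in the library labelled AHRmKO and the gene was seen in 24 of 179 and 8 of 81 nuclei; without clusters 3 and 5 it was at 1.495. Its ratio in leukocyte nuclei was 1.36. Of 9 capillary genes counted 1 was 2-fold higher and 2 lower (median -0.68), and of 9 fatty acid genes none and 2 (median -0.73), against 5.62% of all genes higher and 15.5% lower. Fabp5 and Lpl stood in free RNA at 663 and 123 CPM and at 343 and 140.0 CPM, above their levels in members of each library. Cluster 3, described below, holds 42 and 3 nuclei and has both fibroblast and capillary markers raised, Cd36 and Timp4 among the latter. Leaving it out therefore also takes out capillary UMIs, mostly from the library labelled AHRfl/fl. Without clusters 3 and 5, an alternative added after seeing the data, the capillary median was -0.18 and Cd36 was at 0.0442. Of the 3 capillary genes past 2-fold, Btnl9 was then at 0.78 and Timp4, with 18 and 4 UMIs and an opposite-strand overlap with Syn2, moved from -1.61 to 0.14. Aqp1 stayed past 2-fold at -1.49. The fatty acid median was then -0.58, with Lpl at -2.78 and Fabp5 at -1.38. The fatty acid list had a median gene length of 8.08 kb, and Fabp4, Fabp5 and Aqp1 were also lower in leukocyte nuclei (-1.73, -1.34 and -1.86).

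Among transcription factors of the endothelium, 15 of 19 had a ratio above 0, against 3945 of 7883 over all genes, none was past 2-fold and the median was 0.39. Fli1 was at 1348 and 2627 CPM (log2 ratio 0.96, 0.84 to 1.09), and 1 nucleus held 106 of its 1192 UMIs in the library labelled AHRmKO. Ets1, another ETS factor, was at 199 UMIs (309 CPM) and 259 UMIs (571 CPM) (log2 ratio 0.88, 0.61 to 1.16) and Elk3 at 323 UMIs (502 CPM) and 364 UMIs (802 CPM) (log2 ratio 0.68, 0.46 to 0.90). The ETS factors did not share 1 direction. The 2 lowest genes of the list, Elf2 and Etv6, are ETS factors too. Elf2 was at 220 and 128 UMIs (log2 ratio -0.28) and Etv6 at 515 and 307 UMIs (log2 ratio -0.24). Epas1, the hypoxia-inducible factor 2 alpha subunit, was at 253 UMIs (393 CPM) and 258 UMIs (569 CPM) (log2 ratio 0.53, 0.28 to 0.79), whereas Hif1a was at 169 UMIs (262 CPM) and 59 UMIs (130.0 CPM) (log2 ratio -1.01, -1.47 to -0.58). Of 12 hypoxia genes counted, 1 was 2-fold higher, Vegfa at 9 UMIs (14.0 CPM) and 15 UMIs (33.1 CPM), and 3 were lower, Slc2a1 (log2 ratio -1.36, -2.84 to -0.15), Ddit4 (log2 ratio -1.11, -1.81 to -0.46) and Hif1a, against 5.62% and 15.5% of all genes. The Vegfa ratio of 1.21 was -0.00359 when members needed 3000 UMIs.

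Early response genes, switched on within minutes of many stimuli and of tissue handling, had a median of 0.82, with 7 of 15 counted 2-fold higher and 1 lower, against 5.62% and 15.5% of all genes. Of the 15, 11 are at most 10 kb long, the class whose median over all genes was -0.84. Fos was at 8 UMIs (12.4 CPM) and 56 UMIs (123 CPM) (log2 ratio 3.26, 2.24 to 4.59) and Fosb at 6 UMIs (9.32 CPM) and 38 UMIs (83.7 CPM) (log2 ratio 3.10, 1.91 to 4.70). Fosb was at 1.94 without clusters 3 and 5. Both were also higher in leukocyte nuclei (3.46 and 4.73) and Pdgfra nuclei (4.80 and 5.56). Klf10 was lower at 61 UMIs (94.7 CPM) and 17 UMIs (37.5 CPM) (log2 ratio -1.33, -2.21 to -0.54). Among genes that respond to blood flow, Klf2 was at 96 UMIs (149 CPM) and 36 UMIs (79.3 CPM) (log2 ratio -0.91, -1.51 to -0.34) and Thbd, thrombomodulin, at 25 UMIs (38.8 CPM) and 3 UMIs (6.61 CPM) (log2 ratio -2.47, -4.93 to -0.84), while Heg1, a receptor of the junctional KRIT1 complex, was at 427 UMIs (663 CPM) and 471 UMIs (1038 CPM) (log2 ratio 0.65, 0.45 to 0.84). That list had a median of 0.05, with none of 11 counted 2-fold higher and 1 lower. The signs of the flow, basement membrane, sprouting, secreted, hypoxia, AHR and identity list medians, all within 0.28 of 0, turned under some alternatives.

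In the BMP and TGF-beta list, Acvrl1 (ALK1) was at 28 UMIs (43.5 CPM) and 42 UMIs (92.6 CPM) (log2 ratio 1.08, 0.37 to 1.83) and Smad6, an inhibitor of the pathway, at 24 UMIs (37.3 CPM) and 37 UMIs (81.5 CPM) (log2 ratio 1.12, 0.35 to 1.93). Its target Id3 was at 59 UMIs (91.6 CPM) and 14 UMIs (30.9 CPM) (log2 ratio -1.56, -2.53 to -0.71) and the BMP-binding protein Bmper at 22 UMIs (34.2 CPM) and 4 UMIs (8.82 CPM) (log2 ratio -1.90, -3.95 to -0.40). That made 2 of 14 2-fold higher and 2 lower, against 5.62% and 15.5% of all genes, with a median of 0.20. Without clusters 3 and 5 Smad6 was at 0.32 and Bmper at -0.82, both within 2-fold. Junction genes had a median of -0.10, with Cdh5 at -0.23 (-0.50 to 0.02) and Jam3 at -1.07, the 1 of 12 past 2-fold, which was at -0.57 without clusters 3 and 5. Basement membrane genes had a median of 0.02, with Col4a1 at -0.31 (-0.52 to -0.10) and Sparc, a collagen-binding protein, at 438 UMIs (680.3 CPM) and 122 UMIs (269 CPM) (log2 ratio -1.34, -1.64 to -1.05), the 1 of 13 past 2-fold. Adhesion and inflammation genes had a median of -0.33, with 1 of 10 2-fold higher (Rela, a subunit of NF-kappa B, 1.22 (0.26 to 2.27)) and 2 lower (Vcam1 and the chemokine Ccl2, with 19 and 2 UMIs, -2.61 (-5.89 to -0.69)). Ccl2 and Jam3 were more abundant in free RNA (80.4 and 21.3 CPM and 126 and 165 CPM) than in members of each library. In the library labelled AHRfl/fl that also held for Sparc and Id3 (1026 and 129.8 CPM and 125 and 12.7 CPM). The sprouting list stood at -0.07 with 1 of 12 lower, Aplnr, the apelin receptor, at 91 UMIs (141 CPM) and 27 UMIs (59.5 CPM) (log2 ratio -1.24, -1.93 to -0.61). Plvap, which forms the diaphragms of fenestrae, was at 198 UMIs (308 CPM) and 70 UMIs (154 CPM) (log2 ratio -0.99, -1.41 to -0.60).

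Of 15 secreted signals counted, Edn1 was higher and 2 were lower, Igfbp5 at 123 UMIs (191 CPM) and 8 UMIs (17.6 CPM) (log2 ratio -3.40, -4.68 to -2.41) and the chemokine Cxcl12 at 63 UMIs (97.8 CPM) and 18 UMIs (39.7 CPM) (log2 ratio -1.29, -2.15 to -0.53). Cxcl12 was seen in 5 of 81 nuclei of the library labelled AHRmKO, and 1 of them held 11 of the 18 UMIs. Its ratio was -2.44 without clusters 3 and 5. Free RNA held Igfbp5 at 870.3 and 158 CPM and Cxcl12 at 120.1 and 41.8 CPM, above their levels in members of each library. The median of that list was -0.03, and 5.62% of all genes were 2-fold higher and 15.5% lower.

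**Figure D4:**
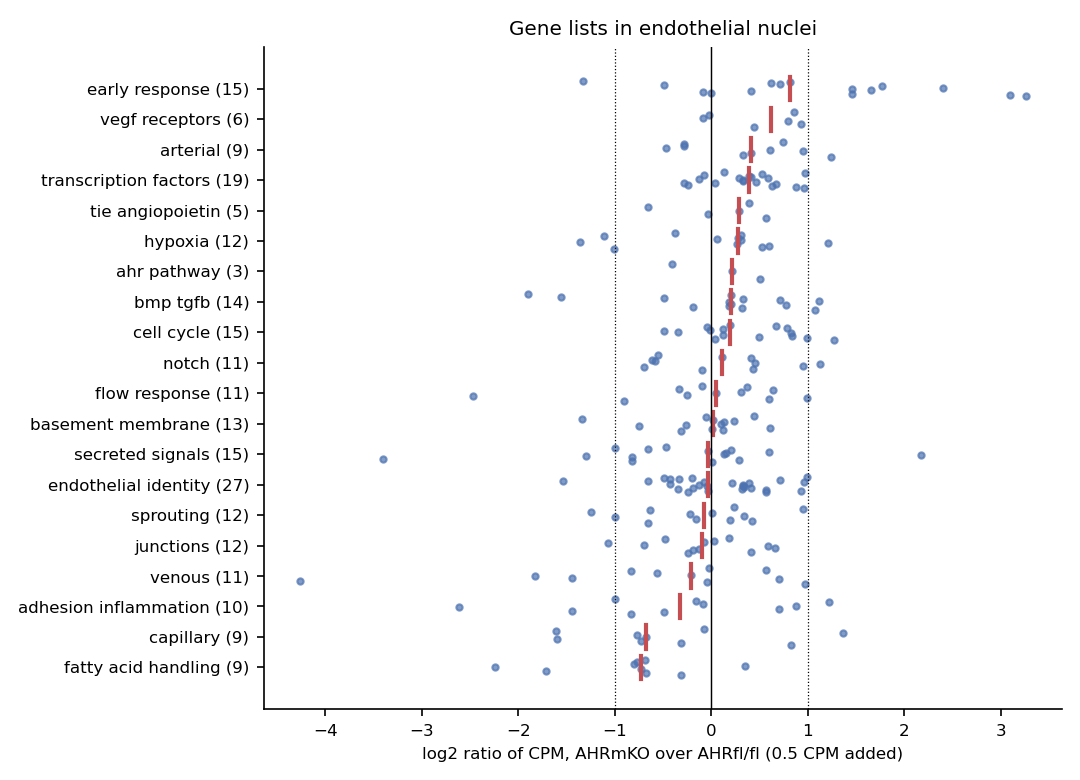
log2 ratio of CPM, library labelled AHRmKO over that labelled AHRfl/fl (horizontal axis), of single genes (points) with at least 20 UMIs in 20 lists (rows, with the number of genes counted), in endothelial nuclei; the lymphatic list, with 2 genes counted, is not drawn. Red bars are list medians and dotted lines mark 2-fold. Of the 20 drawn, the early response list lies furthest right with a median of 0.82 and the fatty acid list furthest left at -0.73.

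The genes named by size were the 15 highest and 15 lowest ratios among genes of at least 30 UMIs and 50 CPM in the higher library and at least 2 times their free RNA level. The highest were led by Kntc1, a kinetochore protein, at 6 UMIs (9.32 CPM) and 32 UMIs (70.5 CPM) (log2 ratio 2.85, 1.64 to 4.47), against 23.2 and 45.2 CPM in all other barcodes. Tspan18, a membrane tetraspanin, was at 68 UMIs (106 CPM) and 190 UMIs (419 CPM) (log2 ratio 1.98, 1.58 to 2.41), in 42 of 179 and 35 of 81 nuclei. Ccm2l, an endothelial relative of the KRIT1 partner CCM2, was at 51 UMIs (79.2 CPM) and 123 UMIs (271 CPM) (log2 ratio 1.77, 1.29 to 2.28), in 40 of 179 and 58 of 81 nuclei. Arrdc3, Sema4c, Nop56, Hoxd3, Arhgap44, Als2cl, Rgl2, Trpm6, Setdb2 and Agap3 had ratios between 1.62 and 2.32. Of the 15, 1 (Rgl2) was also 2-fold or more higher in both leukocyte and Pdgfra nuclei, and 3 (Edn1, Ccm2l and Tmem255a) had ratios below 0 in both. For Ccm2l these rest on 18 and 5 UMIs and on 3 and 1, and for Tmem255a in Pdgfra nuclei on 16 and 0. Nop56 had ratios of 1.24 and 0.93 there and 1.98 in all other barcodes, and Kntc1 had 1.19 and 0.80. Kntc1 was among the genes leading cluster 2, and Trpm6 and Arhgap44 among those leading cluster 4, both described below. For Tmem255a, 1 nucleus held 37 of the 51 UMIs in the library labelled AHRmKO, and the ratio was -0.13 after thinning.

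Among all genes passing that rule, 9 of the 15 lowest had a more abundant partner on the opposite strand and are uncertain, because the counting of strand is not stated in the sources used here. Sorbs2os, which overlaps Sorbs2, had 93 UMIs and none, and Lysmd4, which overlaps Mef2a, had 123 and 2. The other 7 were Rsf1os1, Lrrc4, Pard3bos1, Insyn2a, Mfsd4a, Nxpe2 and Syn3.

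Without such genes, Wdr17 and Dnah3 had the lowest ratios beside Usp50. Wdr17, a WD-repeat protein, was at 90 UMIs (139.8 CPM) and 1 UMI (2.20 CPM), a log2 ratio of -5.70 (-11.31 to -3.47) on the single UMI, in 27 of 179 and 1 of 81 nuclei. Dnah3, a dynein heavy chain, had no UMI in the library labelled AHRmKO against 38 UMIs (59.0 CPM), in 28 of 179 nuclei, in the one labelled AHRfl/fl, at least 8.93-fold lower against a limit of 3 counts over that library's members, with no counting error on the 38 UMIs. The counting interval of its log2 ratio ends at -2.79. Usp50 had 47 UMIs and none, at least 11-fold lower against the same limit, with an interval that ends at -3.11. Its ratios in leukocyte (-3.17) and Pdgfra nuclei (-2.68) were also far below 0. Cmah, an enzyme of sialic acid synthesis, was at 111 UMIs (172 CPM) and 15 UMIs (33.1 CPM) (log2 ratio -2.37, -3.27 to -1.60) and Ly6c1, a surface protein of endothelial and myeloid cells, at 108 UMIs (168 CPM) and 18 UMIs (39.7 CPM) (log2 ratio -2.07, -2.89 to -1.35). Of the 15, 6 (Usp50, Lnx1, Ly6c1, Fgfr2, Xrcc6 and Lrg1) were 2-fold or more lower in both leukocyte and Pdgfra nuclei as well. Rundc3b, at 88 UMIs (137 CPM) and 17 UMIs (37.5 CPM) in endothelial nuclei (log2 ratio -1.85, -2.71 to -1.11), had ratios of 0.34 in leukocyte and 0.77 in Pdgfra nuclei, the second on 4 and 4 UMIs. Itgbl1, Ccbe1, Stxbp6 and Trpm3 made up the rest. In the library labelled AHRfl/fl, 1 nucleus held 26 of the 38 UMIs of Itgbl1 and 1 held 16 of the 33 of Ccbe1. Itgbl1, Ccbe1, Lnx1 and Stxbp6 were among the genes leading cluster 3, described below. Without clusters 3 and 5 the ratios were -1.28 for Itgbl1, -0.80 for Ccbe1, -1.37 for Lnx1 and -1.11 for Stxbp6. Itgbl1 and Ccbe1, and Usp50 and Fgfr2, were below their level in all other barcodes of the library labelled AHRfl/fl.

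**Figure D5:**
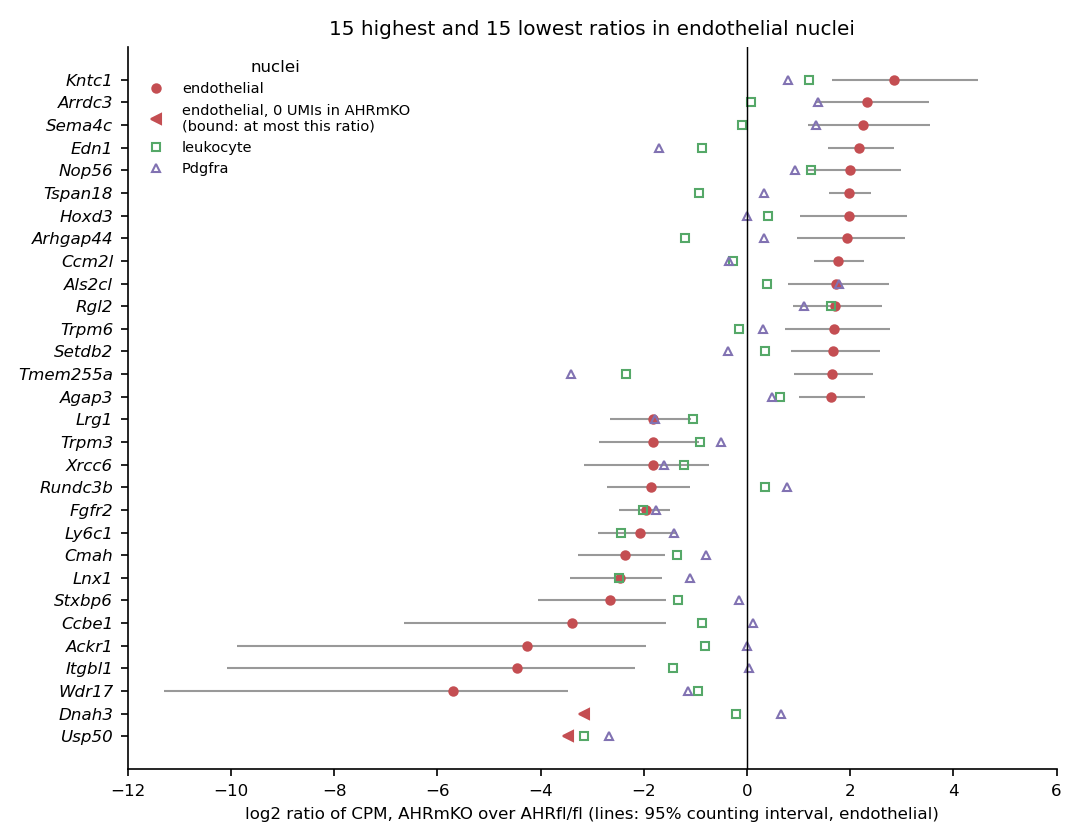
log2 ratio of CPM, library labelled AHRmKO over that labelled AHRfl/fl (horizontal axis), for the 15 highest and 15 lowest genes in endothelial nuclei (filled points, 95% counting intervals as lines) and for the same genes in leukocyte (squares) and Pdgfra nuclei (triangles). Left-pointing triangles are bounds for Dnah3 and Usp50, which had no UMI in the library labelled AHRmKO. Edn1 stands at 2.18 in endothelial nuclei and at -0.87 in leukocyte nuclei.

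Clustering the members of both libraries together gave 5 clusters. Cluster 1 (72 and 31 nuclei) held 12 of 12 venous markers 2-fold or more above the other clusters and is called venous-like. Its capillary markers were not lower, with a sum of 2541 CPM against 2479 in the other clusters. After thinning, 71 of its 72 and 28 of its 31 nuclei had 2 or more UMIs of venous genes. For capillary genes these were 63 and 21. Cluster 4 (17 and 14) held 11 of 12 arterial markers and is called arterial-like, and cluster 2 (37 and 27) held 12 of 18 cell-cycle and 7 of 16 sprouting markers. After thinning to 2000 UMIs, 14 of its 37 and 10 of its 27 nuclei had 5 or more UMIs of cell-cycle genes, and 34 and 21 had 2 or more UMIs of sprouting genes. It is therefore given by its number. Cluster 3 (42 and 3) had 7 of 9 fibroblast markers, 5 of 11 capillary markers and 4 of 5 erythroid markers raised, and cluster 5 (11 and 6) was led by leukocyte genes such as F13a1. Clusters 3 and 5 stay unnamed as well. The names were rebuilt from markers. Cluster sizes are given as counts and not read as a difference between libraries, because genes that define clusters differ between them. Nuclei of cluster 2 had median UMI counts of 3706 and 7884, and sums over members give deeper nuclei more weight. The part of this in ratios of genes leading cluster 2, such as Kntc1, was not tested beyond the alternatives with thinning and per-nucleus shares.

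Within clusters, Nos3 had a ratio above 0 in each of the 5, at 0.99 (0.20 to 1.78) in venous-like nuclei, 1.28 (0.28 to 2.41) in cluster 2 and 1.73 (0.41 to 3.32) in arterial-like nuclei. Clusters 3 and 5 held only 3 and 6 nuclei of the library labelled AHRmKO, so the directions there rest on few nuclei. Edn1 was at 1.29 (-0.29 to 2.96), 2.18 (1.03 to 3.58) and 0.81 (-0.34 to 2.06) in the same order, and of these 3 only the interval in cluster 2 excluded 0. Tspan18 was at 2.17 (1.52 to 2.90) in cluster 2 and 0.33 (-0.59 to 1.21) in venous-like nuclei, an interval that includes 0. Ackr1 had 32 and 1 UMI in venous-like nuclei and Wdr17 84 and 1 UMI. Both are among the genes that define this cluster. At Leiden resolution 0.8, 47 venous-like nuclei formed a cluster of their own, 46 and 1 by library. Another 45 lay in a cluster of 27 and 19. Ratios in venous-like nuclei may therefore compare different mixes of nuclei, which was not tested. Gja5 was at 0.57 (-0.12 to 1.30) in arterial-like nuclei, where the interval includes 0.

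Fabp4 did not have 1 direction. It was at -0.99 (-1.36 to -0.64) in venous-like, -1.48 (-2.59 to -0.46) in arterial-like nuclei and 0.56 (0.22 to 0.92) in cluster 2, whose interval lies above 0. Plvap was at -1.02 (-1.66 to -0.42) in venous-like and -0.02 (-0.81 to 0.79) in cluster 2, and Aqp1 at -1.41 (-2.16 to -0.72) and 0.72 (-0.63 to 2.25). Differences between clusters were not tested. Fli1 had a ratio above 0 in all 5 clusters, from 0.45 in venous-like to 1.57 in cluster 3, which held 3 nuclei of the library labelled AHRmKO. Angpt2, which loosens vessels, was at -1.40 (-2.18 to -0.66) in cluster 2, and Hif1a at -1.25 (-2.05 to -0.53) in venous-like nuclei. Of the cell-cycle list, 1 of 15 counted was 2-fold higher over all members (5.62% of all genes were), Mki67 at 56 UMIs (87.0 CPM) and 96 UMIs (212 CPM) (log2 ratio 1.28, 0.79 to 1.78), and 1 nucleus held 23 of its 96 UMIs in the library labelled AHRmKO. Mki67 was also higher in leukocyte (1.78) and Pdgfra nuclei (0.76).

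Prox1, the factor that defines lymphatic endothelium, had 4 and 5 UMIs in members. The rule uses no gene of the lymphatic list, and it says nothing of how much lymphatic endothelium the tissue held. In the library labelled AHRfl/fl, 1 nucleus of 2799 UMIs held 24 of the 25 UMIs of Reln, all 13 of Mmrn1, 2 of Prox1 and 1 of Lyve1. It entered the set with 4 marker UMIs, the lowest number allowed, of Pecam1 (2), Erg (1) and Cyyr1 (1). The lymphatic list median of -2.75 over 2 counted genes, Flt4 and Reln, rests on this nucleus.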

How the data were processed

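Nuclei from 1 library per genotype were profiled with a 10x Chromium 3′ kit, per the labels' protocols. The deposited matrices hold raw UMI counts per gene and barcode, which the authors made with Cell Ranger 7.0.1 and mm10, per the submitters' processing notes. The matrix headers name another Cell Ranger version. Introns, strand settings and cell filters are not given in the sources used here. Each sum of members was divided by its total, and log2 ratios have 0.5 CPM added. Genes entered counts with 20 UMIs. Intervals on ratios are exact conditional binomial ones (scipy 1.17.1). They were tried on simulated Poisson counts, which hold no variation between nuclei. That trial therefore cannot show how the intervals cover genes whose UMIs gather in few nuclei. Clusters used scanpy 1.11.5 (1000 variable genes, 20 components, 15 neighbours, Leiden resolution 0.5), with the libraries pooled and not aligned to each other. Doublets were scored with Scrublet and not removed. Opposite-strand partners came from a GRCm38 annotation. No deposited column was left unused. The number of nuclei limits precision, and p-values were not computed.

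Members and lists were chosen with earlier results of these data known. Named genes came from the 15 highest and lowest ratios (30 UMIs, 50 CPM, 2 times free RNA), the 20 leading genes and 14 set genes. Each list's 2 highest, 2 lowest and 2 most abundant genes were picked too. Not every picked gene is described above. Hey2, Hes1, Hey1, Heyl, Nrarp, Ets1, Elk3, Hif1a, Prox1, Mmrn1, Lyve1, Nt5e and F13a1 were named after their values were seen.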

Additional observations from a re-analysis of the deposited data

Results flagged for a closer look

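For 2 genes the ratio in endothelial nuclei and those in leukocyte and Pdgfra nuclei had opposite signs beyond 2-fold, with 1 library a group and the difference not tested. Nt5e, the ecto-5′-nucleotidase that makes adenosine, had 19 and 41 UMIs in 15 of 179 and 14 of 81 endothelial nuclei, a log2 ratio of 1.60, against -2.51 in leukocyte and -1.63 in Pdgfra nuclei. Tmem255a, a membrane protein, had a log2 ratio of 1.64, which was -0.13 after thinning. In the library labelled AHRmKO 37 of its 51 endothelial UMIs were in 1 nucleus. Its ratio was -2.34 in leukocyte nuclei, on 114 and 5 UMIs. In Pdgfra nuclei, with 16 UMIs and none, it was -3.41, a size set by the 0.5 CPM added.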

How the results depend on the processing

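No paired analysis was possible because each group has 1 library, and for the same reason no replicate could be left out. Over all settings, 351 recomputed list medians lay within the counting interval of the main value, 2 moved outside it and 4 reversed. Of ratios of named genes 2106 lay within, 70 moved and 8 reversed. A value counted as reversed only where its sign turned and the main interval excludes 0, so other turned signs are not among the reversed. The lymphatic median, resting on 1 nucleus, became 0.85 with at least 6 marker UMIs, 0.67 with at least 3000 UMIs, 0.60 with no UMI of Ptprc, Pdgfra or Pax7 and 0.80 with at least 50 UMIs per gene. The capillary median was -0.96 both when thinned and as a mean of per-nucleus shares. Lowering the UMI limit to 1000 gave 123 members in the library labelled AHRmKO, and raising it to 3000 gave 107 in the one labelled AHRfl/fl. With no UMI of Ptprc, Pdgfra or Pax7 the shares were 0.724% and 0.920%. Genes 2-fold higher numbered 761 when thinned (1447 lower) and 722 with free RNA subtracted (942 lower). With at least 1 UMI per gene 1943 were higher and 5363 lower, and with at least 50 UMIs 180 and 515. Of 156 genes, 22 had a ratio of the other sign or 0 under at least 1 setting. For 16 of them, Vegfa included, the interval in the main setting includes 0. The other 6, whose intervals exclude 0, include Tmem255a (-0.13), Cyyr1 (-0.12), Pparg (-0.0547) and Tcf4 (-0.0187) when thinned, and Cyyr1 (-0.0265) and Pparg (-0.13) as per-nucleus means. The last of the 6 turned without clusters 3 and 5, an alternative added after seeing the data, with Timp4 at 0.14 and Cd36 at 0.0442. At Leiden resolution 0.3 there were 3 clusters, and at 0.8 there were 7. The causes were not tested. Depth limits what could be seen, since 3 counts over all members equal 4.66 and 6.61 CPM.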
